A study of Homo sapiens with 6 samples.

Results

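Mitochondrial calcium uptake and the VDAC channels were followed through 7 genes: MCU, MCUR1, MICU2, LETM1, VDAC1, VDAC2 and VDAC3. They were matched by gene symbol among the 56638 symbols of the count tables, and all 7 passed the filter on low counts that left 15242 genes for testing. The 7 genes were chosen with the results of the comparison below known, so they were selected on the same values that are given here. Their levels, fold changes and calls are therefore a description, and not a test of the members. Total RNA was sequenced from DLD-1 cells, an established human colorectal adenocarcinoma line. Of the 6 libraries, 3 came from cells given a control siRNA and 3 from cells given an siRNA that targets lncSLCC1 (RP11-400N13.2), a long non-coding RNA. All cells, controls included, were transfected and came from the same line at passages 16 to 19, kept at 37 °C and 5% CO2 in RPMI that held 10% serum. The labels do not say whether the 3 libraries of a group came from separate cultures, so p-values and errors reflect only how far these libraries differ from each other, and that spread may be technical. The comparison asks which transcripts differ in level when lncSLCC1 is targeted.

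Calcium enters a mitochondrion in 2 steps. It crosses the outer membrane through the voltage-dependent anion channels (VDAC1, VDAC2 and VDAC3), which also pass ATP, ADP and metabolites, and it crosses the inner membrane through the uniporter, whose pore is MCU. MICU2 belongs to the calcium-sensing gate that keeps the pore closed when cytosolic calcium is low, SMDT1 (also called EMRE) links the gate to the pore, MCUB is a pore paralog that lowers conductance, and MCUR1 is a scaffold of the complex. LETM1, an inner membrane protein, exchanges cations for protons and is known for its part in potassium and calcium balance. Matrix calcium activates dehydrogenases that feed respiration, and overload opens the permeability transition pore.

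The libraries held 12572277 to 15568075 reads in genes. RP11-400N13.2, the targeted RNA, had 5.20, 9.31 and 9.04 CPM (counts scaled to library size) in controls 1, 2 and 3, against 1.66, 2.62 and 2.10 CPM in libraries 1, 2 and 3 of the lncSLCC1 siRNA group. The targeted RNA was lower in each lncSLCC1 siRNA library than in any control, with a log2 fold change of -1.88 (SE 0.264, adjusted p = 0.0027, edgeR quasi-likelihood test with Benjamini-Hochberg adjustment). Of 11 colorectal epithelial markers, 10 averaged at least 1 CPM, with summed levels, most of them KRT8, of 5923 to 7332 CPM in controls and 6041 to 6363 CPM after lncSLCC1 siRNA. Of these markers VIL1 alone was called, higher at 17.3 and 31.6 CPM (log2 fold change 0.87, adjusted p = 0.00618, edgeR). The 9 markers of leukocytes, fibroblasts and endothelium summed to 3.38 to 4.70 CPM and 4.68 to 5.17 CPM, and CD3D and PECAM1 were listed at 0 in all 6 libraries. Among the fibroblast markers PDGFRB was called higher, at 0.533 and 1.32 CPM, while COL1A1 was at 1.929 and 1.698 CPM with no call. The part of either marker list in the members' values was not tested. The controls differed more among themselves, with median absolute deviations from the group mean of 0.172, 0.0791 and 0.145 (log2) for controls 1 to 3, against 0.0547 to 0.0575 in the lncSLCC1 siRNA libraries. In bulk RNA, fewer cells that express a gene and less of its RNA per cell cannot be told apart.

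MCUR1, MCU, VDAC1 and LETM1 were lower after lncSLCC1 siRNA, at 40.3%, 57.3%, 71.8% and 79.9% of their control means. In all, 4 of the 7 members were called lower (edgeR quasi-likelihood test with Benjamini-Hochberg adjustment, threshold 0.05), none higher, and 3 had no call. In the whole table, 13.8% of the tested genes were called in either direction, 7.39% lower and 6.46% higher. The 2 groups did not overlap for 5 members, all lower after lncSLCC1 siRNA, while this held in either direction for 39.0% of all genes tested. Because the members were selected on this contrast, nothing is read from these counts. The median log2 fold change was -0.324 over the 7 members and 0.0072 over all genes tested.

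**Figure D1:**
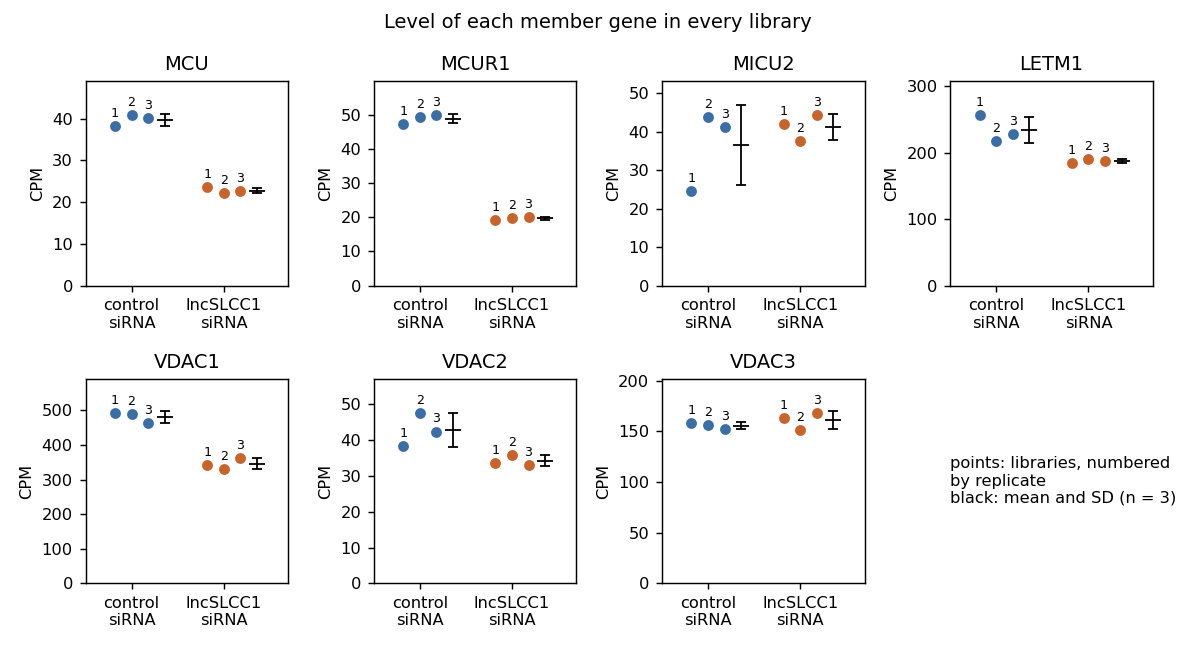
Level of each member gene in CPM (vertical axes, each from 0) in the 3 control siRNA and the 3 lncSLCC1 siRNA libraries; each point is 1 library, and the bar with whiskers is the mean ± SD. The groups are apart for MCU, MCUR1, LETM1, VDAC1 and VDAC2 and overlap for MICU2 and VDAC3, and 1 control point of MICU2, at 24.5 CPM, lies far below the others.

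MCUR1 had the largest difference of the 7. It was read at 47.3, 49.3 and 49.8 CPM in controls 1 to 3 and at 19.1, 19.9 and 20.1 CPM in libraries 1 to 3 after lncSLCC1 siRNA. The groups were far apart and the libraries within each lay close together, with means of 48.8 ± 1.31 and 19.7 ± 0.543 CPM (SD, n = 3 each). On the log2 scale the difference was -1.31 (SE 0.0920, 95% confidence interval -1.52 to -1.11), which ranked 28 from the lowest among all 15242 genes tested. It rests on 258 to 766 reads per library.

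MCU, the pore subunit, was read at 38.2, 40.8 and 40.1 CPM in the controls and at 23.5, 22.2 and 22.6 CPM after lncSLCC1 siRNA. Each lncSLCC1 siRNA library was below every control, and neither group held a library that stood apart. The means were 39.7 ± 1.37 and 22.8 ± 0.693 CPM (SD, n = 3 each), a log2 fold change of -0.80 (SE 0.0933, 95% confidence interval -1.01 to -0.59). Between 290 and 627 reads per library lie behind these values. MCUR1 and MCU did not move in proportion. There were 1.24, 1.21 and 1.24 MCUR1 reads per MCU read in the controls and 0.811, 0.896 and 0.890 in the lncSLCC1 siRNA libraries, so the ratio within a library was lower in each of the latter. Both genes were selected on this contrast, and the ratio restates the difference between their fold changes.

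As MCUR1, MCU and VDAC1 were lower together, the DNA just before their start sites was read from RefSeq (GRCh38.p14, a later build than the hg19/GRCh37 of the count tables). Start-site windows were found for 5 of the 7 members, MCU, MCUR1, MICU2, VDAC1 and VDAC2, in 10 windows of 250 bases. LETM1 and VDAC3 did not match. Printed 5′ to 3′ are the MCUR1 window (chr6:13814558-13814807, minus strand), 1 of the MCU windows (chr10:72691893-72692142, plus strand) and, as a member with motif matches, 1 of the VDAC2 windows (chr10:75209920-75210169, plus strand); capitals mark GCGTG or its reverse complement.
MCUR1: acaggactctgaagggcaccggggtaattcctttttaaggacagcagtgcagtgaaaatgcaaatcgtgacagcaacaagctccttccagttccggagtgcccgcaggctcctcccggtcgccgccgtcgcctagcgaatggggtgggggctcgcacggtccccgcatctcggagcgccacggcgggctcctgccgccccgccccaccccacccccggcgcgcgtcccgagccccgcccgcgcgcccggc
MCU: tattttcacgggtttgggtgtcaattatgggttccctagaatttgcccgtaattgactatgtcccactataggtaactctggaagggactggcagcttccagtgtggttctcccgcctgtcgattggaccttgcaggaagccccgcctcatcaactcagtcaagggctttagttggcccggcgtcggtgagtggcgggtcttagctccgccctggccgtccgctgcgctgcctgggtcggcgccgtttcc
VDAC2: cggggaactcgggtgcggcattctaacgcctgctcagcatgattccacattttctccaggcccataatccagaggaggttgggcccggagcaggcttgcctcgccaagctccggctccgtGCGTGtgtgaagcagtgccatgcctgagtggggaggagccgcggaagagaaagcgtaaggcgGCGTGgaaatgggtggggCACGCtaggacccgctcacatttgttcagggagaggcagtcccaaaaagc

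Searched on both strands were GCGTG (the core that the aryl hydrocarbon receptor binds), CACGTG (the E-box of MYC and USF proteins) and CGCATGCG (the core of NRF1, a regulator of genes for mitochondrial proteins). None of the 3 was found in any window of MCUR1, MCU or MICU2. GCGTG occurred 3 times in the VDAC2 window shown above and 2 times in each of 2 VDAC1 windows, CACGTG occurred 1 time in the other VDAC2 window, and CGCATGCG was in no member's window. Of all 35116 windows of this length, 32.2% held GCGTG, 6.34% held CACGTG and 1.73% held CGCATGCG. No match overlapped a match of another motif in the members' windows. A match is only a run of letters, and its absence says only that these letters are not in this window.

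MICU2, a gatekeeper of the uniporter, did not follow MCU. It was read at 24.5, 43.7 and 41.3 CPM in the controls and at 41.8, 37.5 and 44.3 CPM after lncSLCC1 siRNA. The groups overlapped, and control 1 alone was low. The log2 fold change of 0.17 (SE 0.188, 95% confidence interval -0.25 to 0.59) turned to -0.048 when control 1 was left out, so its sign rested on that library. With control 1 included the means were 36.5 ± 10.4 and 41.2 ± 3.43 CPM (SD, n = 3 each).

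The other genes of the uniporter complex come from a list drawn up with earlier results known. Of its 7 tested genes outside the members, none fell, 1 rose and 6 had no call, and their median log2 fold change was 0.055. SMDT1, the link between gate and pore, had means of 26.7 ± 5.79 and 22.7 ± 1.07 CPM (SD, n = 3 each) and a log2 fold change of -0.23, and MCUB, listed under its earlier symbol CCDC109B, had 32.2 ± 5.23 and 34.8 ± 4.44 CPM. Neither was called (adjusted p = 0.322 and 0.643, edgeR). MAIP1, which guides SMDT1 into the membrane, had a log2 fold change of -0.16 with no call (adjusted p = 0.402, edgeR).

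AFG3L2, a subunit of the inner membrane protease that degrades surplus SMDT1, was the uniporter list's single called gene. It rose from 86.3 ± 1.66 to 110.0 ± 3.43 CPM (SD, n = 3 each), with every lncSLCC1 siRNA library above every control (log2 fold change 0.35, SE 0.0756, adjusted p = 0.0168, edgeR). Its partner SPG7 had a log2 fold change of 0.055 and the protease YME1L1 one of 0.016, neither called (adjusted p = 0.688 and 0.92, edgeR). MICU3, another gatekeeper of the family, had 0 reads in all 6 libraries, which allows a level of up to 0.193 to 0.239 CPM per library (3 reads, counting error only).

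Set against its partners within the same library, MCU was lower after lncSLCC1 siRNA. There were 1.449, 1.197 and 1.104 MCU reads per MCUB read in the controls and 0.727, 0.691 and 0.566 after lncSLCC1 siRNA. The 2 groups did not overlap, and the means were 1.25 ± 0.178 and 0.662 ± 0.0843 (SD, n = 3 each). MCU reads per SMDT1 read averaged 1.54 ± 0.374 in controls and 1.00 ± 0.0208 after lncSLCC1 siRNA, again without overlap. The corresponding values were 1.15 ± 0.350 and 0.555 ± 0.0408 for MCU against MICU2, where control 1 is the high library because its MICU2 level is low. MCU was selected on this contrast, so these ratios largely restate its lower level and are no separate result. They compare reads, not proteins, and whether transcript isoforms differed between the groups was not tested.

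LETM1 was read at 256, 217 and 229 CPM in the controls and at 184, 190 and 187 CPM after lncSLCC1 siRNA. All lncSLCC1 siRNA libraries were below all controls, and the controls were spread more widely, with control 1 highest. The means were 234 ± 20.2 and 187 ± 2.85 CPM (SD, n = 3 each), a log2 fold change of -0.32 (SE 0.0819, 95% confidence interval -0.51 to -0.14). The call was lost when control 2 or any of the 3 lncSLCC1 siRNA libraries was left out, with log2 fold changes of -0.38 to -0.25 over all 14 other settings tried.

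Among the outer membrane channels, VDAC1 carried the difference. It was read at 493, 490 and 462 CPM in the controls and at 343, 331 and 364 CPM after lncSLCC1 siRNA, 4666 to 7523 reads per library. The groups were far apart. The means were 482 ± 16.7 and 346 ± 16.3 CPM (SD, n = 3 each), a log2 fold change of -0.48 (SE 0.0736, 95% confidence interval -0.64 to -0.31).

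VDAC2, the isoform known for holding the death effector BAK at the outer membrane, was read at 38.4, 47.6 and 42.4 CPM in the controls and at 33.68, 35.95 and 33.19 CPM after lncSLCC1 siRNA. The groups did not overlap, with the lowest control close above the highest lncSLCC1 siRNA library, and the gene had no call. On the log2 scale VDAC2 differed by -0.32 (SE 0.106, 95% confidence interval -0.56 to -0.085), as far below 0 as that of LETM1, which was called. VDAC2 was counted from 426 to 732 reads per library and LETM1 from 2400 to 3601. Why VDAC2 had no call was not tested.

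VDAC3 was read at 158, 156 and 152 CPM in the controls and at 163, 151 and 168 CPM after lncSLCC1 siRNA. The groups overlapped. The log2 difference between the groups was 0.047 (SE 0.0757), with a 95% confidence interval from -0.12 to 0.22. There were 3.11, 3.13 and 3.04 VDAC1 reads per VDAC3 read in the controls and 2.10, 2.19 and 2.16 after lncSLCC1 siRNA. The highest ratio after lncSLCC1 siRNA was below the lowest control ratio. VDAC2 reads per VDAC3 read averaged 0.275 ± 0.0313 and 0.214 ± 0.0213 (SD, n = 3 each), also without overlap. As the VDAC genes were selected on this contrast, both ratios only restate their fold changes.

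Divided by the length of the longest basic transcript of each gene, the VDAC genes summed to 394, 397 and 376 CPM per kb in the controls and 318, 304 and 332 CPM per kb after lncSLCC1 siRNA. VDAC1 made up 64.1%, 63.2% and 62.9% of that sum in the controls and 55.3%, 55.8% and 56.1% after lncSLCC1 siRNA. VDAC3 made up 29.5% ± 0.404 and 37.3% ± 0.626 (SD, n = 3 each). VDAC2 was the smallest part, at 7.07% ± 0.743 and 6.94% ± 0.591. The groups did not overlap in the shares of VDAC1 and VDAC3, while the VDAC3 level itself did not differ beyond its spread. As parts of the same sum, the VDAC3 share is higher where the VDAC1 share is lower. The shares restate the fold changes of members selected on this contrast and are no separate result.

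**Figure D2:**
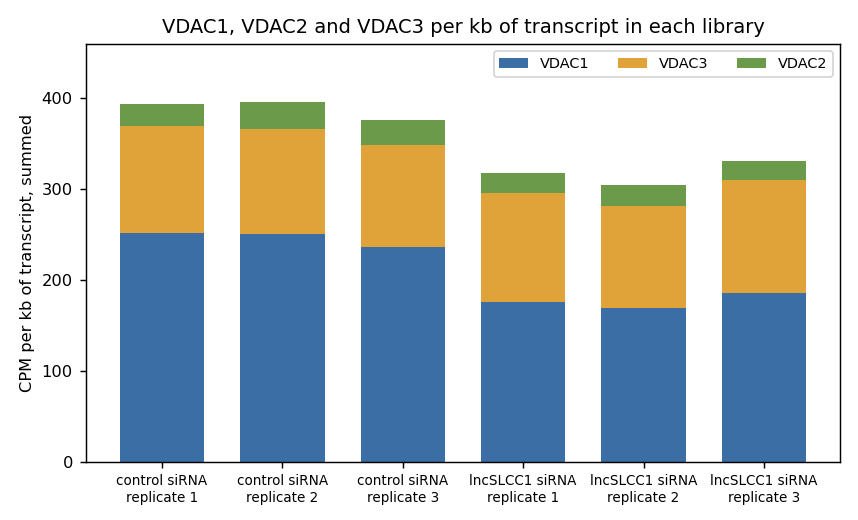
Stacked bars of VDAC1, VDAC2 and VDAC3 in CPM per kb of transcript (vertical axis, from 0) for each of the 6 libraries. The control bars reach 376 to 397 and the lncSLCC1 siRNA bars 304 to 332, and the VDAC1 and VDAC2 segments of all 3 lncSLCC1 siRNA bars are smaller than those of the controls.

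The VDAC genes have processed pseudogenes, copies that can share reads with the parent. VDAC1P1 is 97.4% identical to the VDAC1 transcript over 850 aligned positions, while the paralogs VDAC2 and VDAC3 are 72.1% and 67.9% identical. The closeness is seen in a stretch of 120 bases of coding sequence (GENCODE release 29, GRCh38; VDAC1 coding bases 366 to 485), printed 5′ to 3′ with the 5 differing bases in capitals.
VDAC1: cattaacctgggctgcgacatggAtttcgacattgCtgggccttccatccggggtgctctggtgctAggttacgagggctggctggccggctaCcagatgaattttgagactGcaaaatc
VDAC1P1: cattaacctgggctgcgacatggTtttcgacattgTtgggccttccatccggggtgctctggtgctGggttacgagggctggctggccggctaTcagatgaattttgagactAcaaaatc

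VDAC1P1 was read at 40.4, 39.5 and 32.7 CPM in the controls and at 27.6, 24.6 and 28.5 CPM after lncSLCC1 siRNA. The groups did not overlap, and the gene fell with a log2 fold change of -0.48 (SE 0.116, adjusted p = 0.0253, edgeR), close to that of VDAC1. This call, unlike that of VDAC1, was lost without control 2 or any 1 lncSLCC1 siRNA library (adjusted p = 0.0827 to 0.139, edgeR), with log2 fold changes of -0.58 to -0.41 over the 14 other settings. There were 0.0778 ± 0.00623 VDAC1P1 reads per VDAC1 read in the controls and 0.0777 ± 0.00306 after lncSLCC1 siRNA (SD, n = 3 each), so the ratio of the parent and the copy did not differ beyond its spread. VDAC1P2 had means of 6.08 and 4.80 CPM and no call (adjusted p = 0.151, edgeR). How many of the pseudogene reads came from VDAC1 transcripts was not tested. Of 14 pseudogenes listed under VDAC symbols, 5 had any read and these 2 averaged at least 1 CPM.

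Shared sequence was largest for VDAC2. Of its 1508 windows of 50 bases, 48.8% also occurred in a transcript of another gene, mostly in AC007318.1, a processed pseudogene, against 19.9% for VDAC1, 3.6% for VDAC3, 2.49% for MCUR1, 2.29% for LETM1 and 0 for MCU and MICU2. The part of these shared stretches in the level or the difference of VDAC2 was not tested. No member shared exonic bases with another annotated gene, on either strand.

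Per kb of transcript, VDAC1 had the highest control level, 247 ± 8.57 CPM per kb (SD, n = 3). Below it came VDAC3 at 115 ± 2.26, LETM1 at 42.8 ± 3.69, VDAC2 at 27.5 ± 2.98, MICU2 at 19.0 ± 5.44, MCU at 12.3 ± 0.424 and MCUR1 at 8.92 ± 0.239 CPM per kb. The ranges of all neighbours in this order were apart in the controls. After lncSLCC1 siRNA the order was the same, from VDAC1 at 177 ± 8.36 to MCU at 7.06 ± 0.215 and MCUR1 at 3.60 ± 0.0992 CPM per kb, but the ranges of VDAC2 (22.01 ± 0.945) and MICU2 (21.46 ± 1.79) overlapped. The 2 members with the largest fold differences were thus also the 2 with the lowest levels. LETM1 and VDAC3 change places when the median length of a gene's transcripts is used.

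Genes that act on either side of mitochondrial uptake were read from 5 more lists, also drawn up with earlier results of these data known. Over these and the uniporter list, 69 genes outside the members were tested, of which 5 fell, 8 rose and 56 had no call. Of the 69, 18.8% were called, beside 13.8% of all genes, and their median log2 fold change was -0.011. Given how the lists were chosen, their counts and calls are a description, and nothing is read from this share. All 13 calls were kept without control 1 and 11 without control 3, but only 2, VAPB and BCAP31, were kept without control 2 or any 1 lncSLCC1 siRNA library. How far the fold changes moved over the 14 other settings differed by gene. HK2 ran from -0.41 to -0.29, AFG3L2 from 0.33 to 0.42 and PPIF from -0.58 to -0.38 (log2). Some moved further: ITPR2 ran from 0.28 to 0.63, ORAI2 from 0.23 to 0.48 and MFN1 from 0.30 to 0.52. For ITPR2, ORAI2 and MFN1 the lowest value came with GC content and length offsets.

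**Figure D3:**
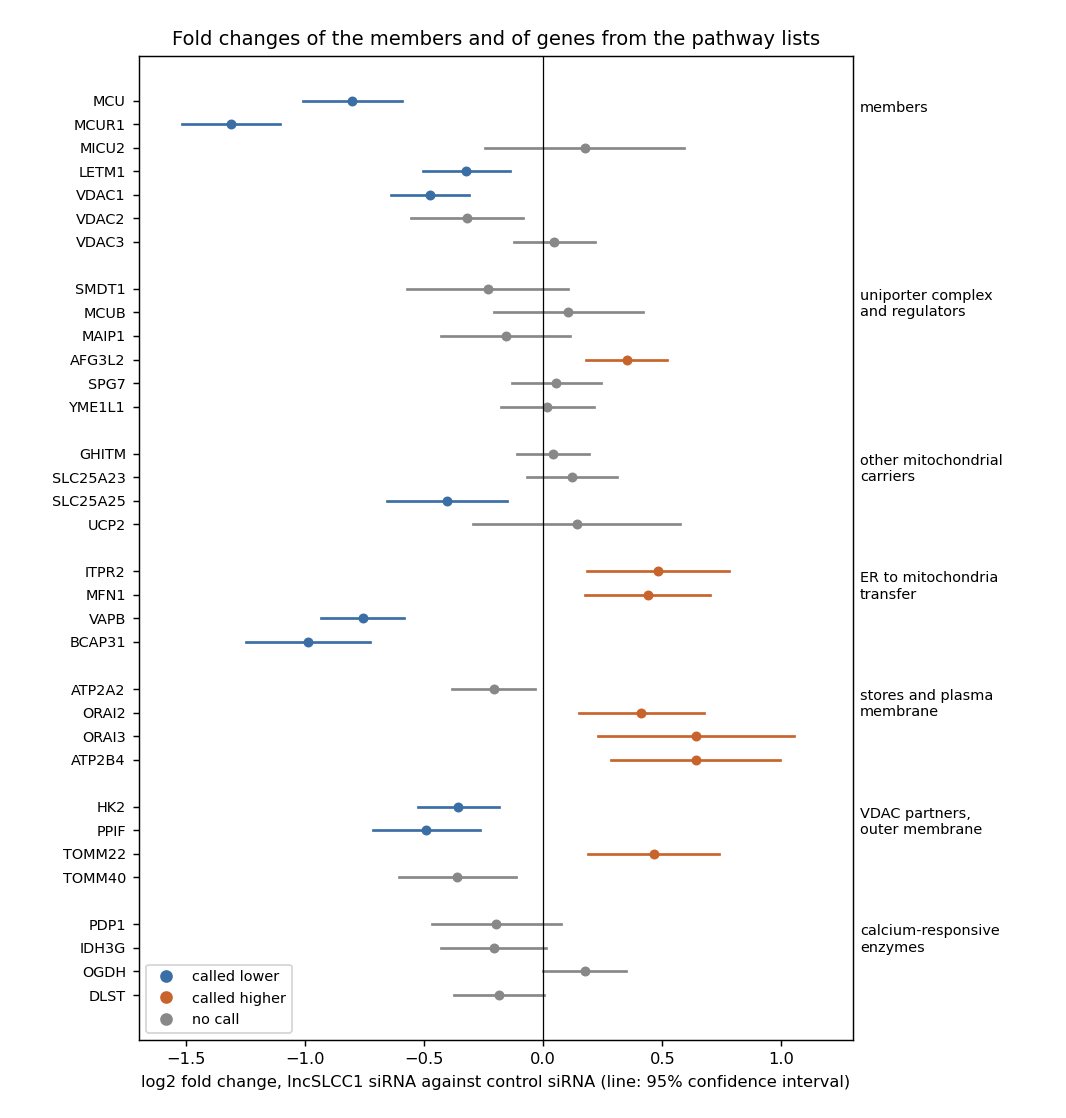
Log2 fold change of lncSLCC1 siRNA against control siRNA (horizontal axis) for the 7 members and genes of the 6 lists, with points for the estimate and lines for the 95% confidence interval from edgeR, coloured by call. MCUR1 lies farthest left at -1.31, followed by BCAP31 at -0.99, MCU at -0.80 and VAPB at -0.76, while ORAI3 and ATP2B4 lie farthest right at 0.64.

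In the list for calcium transfer from the endoplasmic reticulum to mitochondria, 2 of 15 tested genes fell, 3 rose and 10 had no call, and the median log2 fold change was 0.042. BCAP31, an endoplasmic reticulum membrane protein that binds the fission factor FIS1, fell, with means of 222 ± 35.7 and 112 ± 8.02 CPM (SD, n = 3 each) and a log2 difference of -0.99 (SE 0.117, adjusted p = 0.000988, edgeR). VAPB, which tethers the endoplasmic reticulum to mitochondria through RMDN3, fell too, with means of 99.3 ± 0.809 and 58.7 ± 2.13 CPM and a log2 difference of -0.76 (SE 0.0783, adjusted p = 0.000497, edgeR). ITPR2, an inositol trisphosphate receptor that releases stored calcium, rose from 84.5 ± 17.5 to 118 ± 2.77 CPM (log2 fold change 0.48, adjusted p = 0.0402, edgeR). The receptor ITPR3, at a higher level, went the other way, from 241 ± 38.9 to 188 ± 5.67 CPM. Its groups did not overlap, and it had no call (log2 fold change -0.36, adjusted p = 0.055, edgeR). ITPR1 had means of 1.44 and 1.43 CPM and no call. ITPR3 and ITPR1 were named after their values were seen. MFN1, a fusion protein of the outer membrane, rose from 49.0 ± 7.27 to 66.4 ± 4.12 CPM (log2 fold change 0.44, adjusted p = 0.0367, edgeR). The third gene that rose, PACS2, a sorting protein of these contacts, was named after its values were seen (log2 fold change 0.31, adjusted p = 0.0467, edgeR).

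Of the proteins that bind VDAC or sit beside it in the outer membrane, 18 were tested, of which 2 fell, 1 rose and 15 had no call, with a median log2 fold change of -0.18. PPIF, which encodes cyclophilin D, the regulator of the permeability transition pore, fell, with means of 340 ± 46.6 and 242 ± 9.80 CPM (SD, n = 3 each), control 1 being highest, and a log2 difference of -0.49 (SE 0.101, adjusted p = 0.0137, edgeR). HK2, a hexokinase that docks on VDAC1, fell from 216 ± 9.44 to 169 ± 7.93 CPM (log2 fold change -0.36, adjusted p = 0.0159, edgeR). The other hexokinase of the list, HK1, did not fall, with means of 106 ± 7.16 and 115 ± 3.00 CPM. It had no call (log2 fold change 0.11, adjusted p = 0.392, edgeR) and was named after its values were seen. TOMM22, a receptor of the protein import complex, rose from 99.8 ± 19.4 to 138 ± 2.48 CPM (log2 fold change 0.46, adjusted p = 0.0359, edgeR). TOMM40, the import pore, had a log2 fold change of -0.36 and no call (adjusted p = 0.055, edgeR).

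Of 11 tested genes that handle calcium at the stores and the plasma membrane, 3 rose, none fell and 8 had no call. ATP2B4, a calcium pump of the plasma membrane, rose from 8.97 ± 1.45 to 13.96 ± 2.09 CPM (log2 fold change 0.64, adjusted p = 0.0288, edgeR; SD, n = 3 each). The store-operated channel genes ORAI2 and ORAI3 rose with log2 fold changes of 0.41 and 0.64 (adjusted p = 0.0455 and 0.0464, edgeR), ORAI3 from only 3.48 CPM. The ORAI2 call was lost with the replicate block (adjusted p = 0.064, edgeR) and with GC content and length offsets (log2 fold change 0.23, adjusted p = 0.165, edgeR), and the ORAI3 call with DESeq2 and with limma-voom (adjusted p = 0.0532 in both). Each was kept in 7 of the 14 other settings. The paralogs at higher levels did not rise. ORAI1 had means of 26.1 and 23.6 CPM (log2 fold change -0.14, adjusted p = 0.435, edgeR). The pump gene ATP2B1 had 148 and 133 CPM (log2 fold change -0.16, adjusted p = 0.463, edgeR). Neither was called, and both were named after their values were seen. ATP2A2, the pump that refills the stores, had a log2 fold change of -0.21 and no call (adjusted p = 0.1, edgeR). Among 7 other mitochondrial carriers, SLC25A25, an ATP-magnesium/phosphate carrier regulated by calcium, fell from 61.1 ± 9.19 to 46.2 ± 1.14 CPM (log2 fold change -0.40, adjusted p = 0.0422, edgeR, or 0.0589 with library totals), and the other 6, among them GHITM, SLC25A23 and UCP2, had no call.

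None of the 11 tested calcium-responsive mitochondrial enzymes and carriers was called in the edgeR fit reported here, and none had an unadjusted p under 0.05 in it. Their median log2 fold change was -0.019. The 4 with the smallest p were OGDH at 0.17, IDH3G at -0.21, DLST at -0.19 and PDP1 at -0.20 (adjusted p = 0.158, 0.174, 0.165 and 0.29, edgeR). Under the 14 other settings OGDH was called higher in 3, PDP1 lower in 2 and DLST lower in 1, and IDH3G was never called. OGDH, DLST and IDH3G encode parts of calcium-sensitive dehydrogenases of the citric acid cycle, and PDP1 the phosphatase that activates pyruvate dehydrogenase.

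The profiles over the 6 libraries were compared among the members as the root mean square difference of log2 CPM centred on each gene's mean. LETM1 and VDAC1 were the closest pair, at 0.113, and MCUR1 and MICU2 the most distant, at 0.802. MCU lay nearer to VDAC1, at 0.173, than to MCUR1, at 0.258. Among 10255 genes compared, the protein-coding genes close to MCU included VAPB at 0.0355, VAMP3 at 0.0380, CNNM4 at 0.0525 and TMEM9B at 0.0578. The closest to MCUR1 were UBFD1 at 0.0683, TXNIP at 0.105, STRBP at 0.116, PRPS2 at 0.121 and CDC25B at 0.122. A profile close to that of MCU or MCUR1 holds a similar group difference by construction, so the fold changes of these genes add nothing of their own. Distances between members likewise contain the difference of their fold changes, on which they were selected, and are no separate result.

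MCU, MCUR1 and VDAC1 were called lower under each of the 14 other settings of normalization, filter, test and left-out library, with log2 fold changes of -0.87 to -0.73, -1.40 to -1.24 and -0.52 to -0.41. LETM1 was called under 10 of the 14. VDAC2 was negative under all 14 and called under 2, with GC content and length offsets and without control 1. VDAC3 was not called under any of them, with values of 0.012 to 0.12, and MICU2 was not called either, with values of -0.048 to 0.32. The settings reuse the 6 libraries on which the members were selected. Calls kept under them show how values depend on processing and are no separate support.

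**Figure D4:**
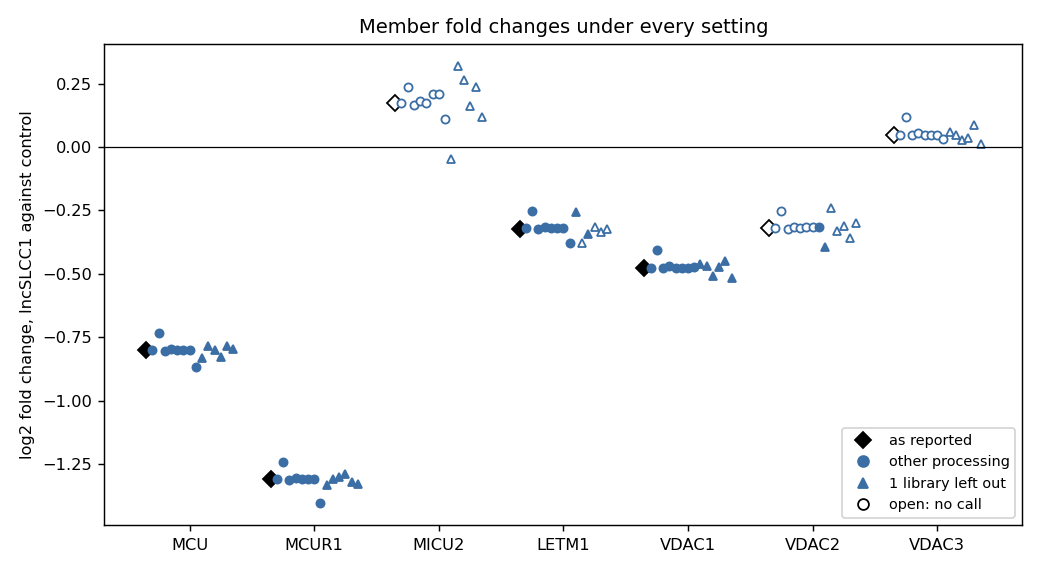
Log2 fold change of each member (horizontal axis: gene, vertical axis: log2 fold change of lncSLCC1 siRNA against control siRNA) as reported and under each of the 14 other settings; filled points are called and open points are not. MCUR1, MCU and VDAC1 keep filled points below 0 throughout, VDAC2 is called under 2 settings, and MICU2 spreads from -0.048 to 0.32.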

How the data were processed

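For each of the 6 libraries the authors deposited raw counts of reads by gene symbol. TopHat2 2.0.11 and HTSeq, with builds hg19 and GRCh37, are named per the submitters' processing notes. Strand setting and annotation release: not given in the sources used here. The summary lines that HTSeq appends entered neither library sizes nor tests: 5.42% to 7.58% of counted reads and alignments had no feature, 8.83% to 10.1% were ambiguous and 12.8% to 13.8% were not unique. Groups were taken from the sample labels. Counts as deposited were fitted for all genes with edgeR 4.0.16 (R 4.3.3) by its quasi-likelihood test, with TMM library sizes, filterByExpr defaults and no covariate. A gene was called if its p, adjusted by Benjamini-Hochberg over all tested genes, was under 0.05. CPM values use TMM library sizes, and standard errors were derived from the F statistic. The biological coefficient of variation was 10.9%. Alternatives used DESeq2 1.42.0, limma 3.58.1, other scalings and filters, GC content and length offsets, and left-out libraries. The fits were checked on simulated counts with known changes. The simulation gave both groups the same spread, so it does not cover the wider spread seen among the controls.

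The members and gene lists were chosen with earlier results of these data known. Named were the members, RP11-400N13.2, the uniporter genes, up to 4 genes with the smallest p from each other list, VDAC pseudogenes averaging at least 1 CPM and the 5 closest profiles to MCU and MCUR1 (at least 5 CPM). A few genes selected this way are not reported here. Transcript lengths are those of GENCODE release 29, which matched 63.1% of the symbols and 89.4% of tested genes. Sequence identity was computed with BLAST 2.17.0. Replicate numbers were not treated as pairs.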

Additional observations from a re-analysis of the deposited data

How the results depend on the processing

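With 1 library left out, log2 fold changes ran from -0.048 (without control 1) to 0.32 for MICU2, from -0.025 (without control 1) to 0.19 for CCDC109B (MCUB), which was -0.0043 without lncSLCC1 siRNA library 3, and from -0.065 (without control 1) to 0.079 for YME1L1, which was -0.00014 without lncSLCC1 siRNA library 3. GC content and length offsets gave -0.11 for YME1L1 and -0.013 for GHITM. The cause of these turns was not tested. Genes called higher numbered 984, and 1600 with no filter on low counts, 1650 with GC content and length offsets and 213 to 2112 with 1 library left out. Genes called lower numbered 1126, and 1672 with no filter, 2852 with the offsets and 244 to 2431 with 1 library left out. Of all called genes, 46.6% were higher, against 63.9% with library totals and 36.7% with the offsets. Members called lower numbered 3 to 5 with 1 library left out. List genes called lower numbered 5, and 12 with no filter, 8 with DESeq2, 17 with the offsets and 2 to 15 with 1 library left out, and those called higher numbered 0 to 13 with 1 library left out.

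Same-numbered libraries of the 2 groups had correlations of deviations of 0.0942, 0.00135 and -0.0159. No shared replicate effect was visible, but these values cannot decide whether the numbers pair the samples. With the replicate block, 993 genes were higher and 1059 lower, all 4 member calls were kept, and 11 of the 13 list calls were kept. Adding reads of the pseudogenes with VDAC symbols to the parents put VDAC1 at 65.4% in controls and 57.9% after lncSLCC1 siRNA. VDAC2 was then at 6.68% and 6.59% and VDAC3 at 27.9% and 35.5%. AC007318.1, which shares sequence with VDAC2, was not added. The median transcript length gave 67.2% and 59.8% for VDAC1, 6.05% and 6.01% for VDAC2 and 26.7% and 34.2% for VDAC3. On that length the control levels were 580 CPM per kb for VDAC1, 242 for LETM1, 231 for VDAC3, 52.2 for VDAC2, 46.2 for MICU2, 36.9 for MCU and 26.7 for MCUR1.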
